A study of Mus musculus with 12 samples.

Results

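Hmcn1 encodes hemicentin 1, a very large protein of the extracellular matrix, and its single close relative in the mouse, Hmcn2, encodes hemicentin 2. The array assigned 77 transcript clusters, the groups of probes that are summarised into 1 value, to Hmcn1 and 1 cluster to Hmcn2, so that 78 of 35556 clusters are described. All clusters that carry either symbol alone were taken. Hmcn1 was chosen by earlier results on these same arrays, namely that many of its clusters were lower in lactating than in virgin mice. Its group differences are therefore given as a description, without a test, whereas Hmcn2 and the other matrix genes were tested.

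RNA from the septum of 6 lactating and 6 virgin female mice was hybridised to Affymetrix GeneChip Mouse Gene 1.0 ST arrays, with 1 array per mouse. All mice came from 1 line that was selectively bred for high maternal aggression out of outbred hsd:ICR stock, and all were about 70 days old. The lactating mice had lived with a breeder male for 2 weeks and were taken on postpartum days 6 to 8, so they had also mated, been pregnant, given birth and nursed. The virgin mice had lived with other females for the same time and were in estrus, diestrus I or diestrus II, 2 mice in each, but the labels do not tell which. Both groups were housed singly after that. The study asked how gene expression in the septum differs between the maternal and the virgin state. The methods speak of the whole septum and the labels of its lateral part. The mean intensity of the 13 septum markers over all arrays ranged from 328 (Chat) to 7055 (Gad2). Gad1 and Gad2, the enzymes that make GABA, lay between 6524 and 7076 in both groups. The 5 striatal markers ranged from 1668 (Drd1) to 11659 (Penk), so these intensities do not tell which tissue was dissected. None of the 13 septum markers passed an unadjusted limma p under 0.05. The replicates are separate mice, and 6 arrays per group limit the precision of every value.

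Hemicentins begin with a von Willebrand factor A domain, continue with a long row of immunoglobulin modules and end with EGF modules and a fibulin-like tail, and for this reason hemicentin 1 is also known as fibulin-6. They were first described in the nematode, where secreted hemicentin anchors cells and joins neighbouring basement membranes. Which cells of the septum make them was not analysed here. The coding transcript of Hmcn1 is among the longest in the genome, with a very large number of exons.

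The sequences around the start sites of both genes are shown because Hmcn1 and Hmcn2 are the only members of the family and their upstream regions can be read side by side. Each runs 5' to 3' on the strand of its gene, from 250 bases before to 50 after the annotated start, in the RefSeq table for GRCm38.p6. Capitals mark the CCAAT box, read on both strands as CCAAT or ATTGG. The Hmcn1 window is chr1:150993386-150993685 on the minus strand, and the Hmcn2 window is chr2:31314082-31314381 on the plus strand.
Hmcn1: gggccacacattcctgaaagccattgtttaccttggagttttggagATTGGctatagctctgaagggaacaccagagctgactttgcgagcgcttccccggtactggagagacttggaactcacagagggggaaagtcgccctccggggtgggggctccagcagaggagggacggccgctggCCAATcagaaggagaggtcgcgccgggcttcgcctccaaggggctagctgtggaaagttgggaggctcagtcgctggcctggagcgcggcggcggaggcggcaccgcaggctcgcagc
Hmcn2: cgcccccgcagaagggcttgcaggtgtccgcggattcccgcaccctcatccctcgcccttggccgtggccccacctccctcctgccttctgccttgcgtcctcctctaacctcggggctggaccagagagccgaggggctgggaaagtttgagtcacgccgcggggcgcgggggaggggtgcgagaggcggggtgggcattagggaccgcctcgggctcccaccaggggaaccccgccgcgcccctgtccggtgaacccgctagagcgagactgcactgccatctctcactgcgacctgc

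The Hmcn1 window held 2 CCAAT boxes, 1 on each strand, and the Hmcn2 window held 0. A CCAAT box occurred in 37.4% of the 32851 promoter windows of the table. Neither window held a GC box (GGGCGG on either strand), which occurred in 35.7% of windows, or a TATA box (TATAAA on either strand), which occurred in 13.6%. Both were rich in G and C, at 63.3% for Hmcn1 and 70.7% for Hmcn2, against a median of 52.7% over all windows. A match of letters is a description of these windows and does not show that a factor binds there.

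Hmcn1 intensity was low to moderate in the septum. The mean over all 12 arrays ranged from 39.6 to 629.7 between its clusters with a median of 174, whereas the median over all 35556 clusters was 331. A total of 11 Hmcn1 clusters lay under 100, 58 between 100 and 300, and 8 over 300. Different clusters have different probes, so their intensities do not rank amounts of RNA along the gene. As a measure of the signal of genes that the septum is not known to use, the clusters of olfactory and vomeronasal receptors, the receptors of the sensory neurons of the nose, were taken. The 1212 receptor clusters had a median intensity of 86.1, with the 5th and 95th percentiles at 25.7 and 246. Of the Hmcn1 clusters, 73 were above the receptor median and 15 above the receptor 95th percentile.

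Hmcn1 was lower in the lactating mice along nearly its whole row of clusters. The difference, lactating minus virgin on log2(intensity + 16), was negative in 74 of 77 clusters, with a median of -0.12, quartiles of -0.15 and -0.08 and a range from -0.25 to 0.03. The median cluster was 8.47% lower on the linear scale, and the standard errors lay between 0.037 and 0.112. Of the 77, 4 clusters were below -0.2, 43 between -0.2 and -0.1, 27 between -0.1 and 0, and 3 above 0. The differences were about the size of the spread between single mice, as the median SD within a group was 7.96% of the mean in virgin and 7.83% in lactating mice. At an unadjusted limma p under 0.05, 28 Hmcn1 clusters were lower, which is 36.4% of them, and 0 were higher. Over all 35556 clusters 4.69% were lower and 3.26% were higher by that rule, and because Hmcn1 was chosen on this contrast nothing is read from the gap. Over all clusters, 54.4% of differences were negative with a median of -0.00931, and 0 reached an adjusted limma p under 0.05 (the smallest was 0.0715). In bulk tissue, fewer cells of a type that makes Hmcn1 and less Hmcn1 RNA per cell cannot be told apart.

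**Figure D1:**
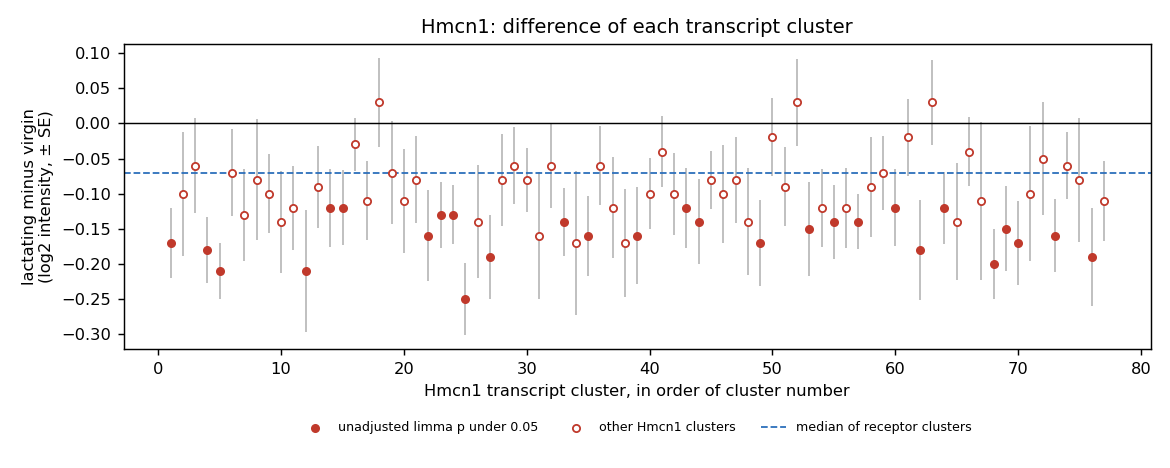
Difference between lactating and virgin mice (log2 of intensity + 16, with its standard error) for each of the 77 Hmcn1 clusters in order of cluster number; filled points passed an unadjusted limma p under 0.05 and the dashed line is the median of the receptor clusters. Points lie below 0 in 74 clusters and 61 lie below the receptor line at -0.07, in a gene that was chosen on this contrast.

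In 3 Hmcn1 clusters every lactating mouse was below every virgin mouse. Over all clusters 0.186% showed this pattern and 0.208% showed the opposite, which no Hmcn1 cluster did. Cluster 10358559, the 25th in number, had the most negative difference. Its intensity in virgin mice 1 to 6 was 261, 259.7, 263, 300.3, 267 and 271. In lactating mice 1 to 6 it was 239.8, 235, 226, 214, 234 and 199. Virgin mouse 4 stood above the other virgin mice and lactating mouse 6 was lowest, while virgin mouse 2 and lactating mouse 1 bounded the gap between the groups. The group means were 270.3 ± 15.3 and 225 ± 15.6 (SD, n = 6 each), a difference of -0.25 ± 0.051 (SE) on the log2 scale.

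Cluster 10358519 was even among the virgin mice. Its intensity was 175, 175, 173, 176, 179 and 169 in virgin mice 1 to 6. It was 153, 155, 138, 137, 157 and 152 in lactating mice 1 to 6. The lactating mice fell into a lower pair, mice 3 and 4, and 4 others, all below the virgin mice, and the difference was -0.21 ± 0.0402 (SE). Cluster 10358654 had 259.9, 251, 228, 279, 235 and 274 in virgin mice 1 to 6. It had 214, 225, 215, 223, 223 and 211 in lactating mice 1 to 6. Here the virgin mice spread widely, with mice 3 and 5 close to the highest lactating mouse, and the difference was -0.20 ± 0.0492 (SE).

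The other clusters with the most negative differences had overlapping groups. Cluster 10358533 had a mean of 174 ± 29.5 (SD, n = 6) in virgin and 147 ± 9.46 in lactating mice, a difference of -0.21 that carried the widest virgin spread of the named clusters in relation to its mean. Cluster 10358670 had 409.6 ± 29.6 in virgin and 357 ± 39.8 in lactating mice (-0.19), and cluster 10358563 had 163 ± 11.2 and 141 ± 12.8 (-0.19).

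The brightest Hmcn1 clusters, which lay well above the receptor signal, differed less evenly. Cluster 10358573, the brightest, had 641 ± 24.5 in virgin and 618 ± 61.5 in lactating mice (SD, n = 6 each), a difference of -0.06, and 3 of 6 lactating mice were below the virgin median. Cluster 10358623 had 577, 638, 595, 578, 622 and 631 in virgin mice 1 to 6. It had 559, 581, 526, 545, 550.1 and 529 in lactating mice 1 to 6. Only lactating mouse 2 reached into the virgin range, and the difference was -0.14 ± 0.0393 (SE). Cluster 10358611 had 495 ± 40.2 and 465 ± 26.7 (-0.09), and cluster 10358591 had 436 ± 29.2 and 423 ± 22.9 (-0.04).

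The 3 Hmcn1 clusters that were not lower had differences of 0.03 each. They were 10358545 with 98.4 ± 10.1 and 100.4 ± 7.86, 10358613 with 136 ± 15.5 and 139 ± 6.08, and 10358635 with 186 ± 9.94 and 191 ± 18.9 (virgin and lactating, SD, n = 6 each). All were within the spread of either group.

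The median difference was similar along the cluster numbers. The positions of the clusters on the transcript were not analysed here, and the order is that of the array's own numbers, which are contiguous for Hmcn1 in that no other cluster is numbered between its first and its last. The 26 clusters with the lowest numbers had a median difference of -0.12, the 25 in the middle -0.10 and the 26 with the highest numbers -0.12. Of these, 10, 7 and 11 passed the unadjusted limma p. The first cluster, 10358490, had 153 ± 8.59 in virgin and 134 ± 9.23 in lactating mice (-0.17). The last, 10358672, had 221 ± 18.9 and 203 ± 12.1 (-0.11). Across the 77 clusters, which share mice, Spearman's rho of the difference with the order was 0.05 and with the mean intensity -0.07, and r between the differences of neighbouring clusters was -0.05. The 3 clusters with 1 symbol on either side of Hmcn1 in number belong to other genes, and none passed an unadjusted limma p under 0.05. Before it these were Bex4 (-0.04), Odr4 (0.05) and Prg4 (-0.03), and after it Ivns1abp (0.05), Swt1 (0.09) and Rnf2 (-0.00).

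When the 77 clusters were averaged within each mouse, Hmcn1 was lower in the lactating group, with 1 lactating mouse reaching into the virgin range. The mean Hmcn1 intensity in virgin mice 1 to 6 was 202, 202, 192, 211, 192 and 199. In lactating mice 1 to 6 it was 183, 194, 179, 184, 184 and 177. Lactating mouse 2 lay above virgin mice 3 and 5, while the other 5 lactating mice were below every virgin mouse. The group means were 199.8 ± 7.07 and 184 ± 5.75 (SD, n = 6 each), 8.14% lower. On the log2 scale they were 7.60 ± 0.049 and 7.49 ± 0.0388, a difference of -0.11. The overlap depended on the scaling. The difference was -0.07 after quantile normalization, with 4 lactating mice below every virgin mouse, and -0.07 after cyclic loess, with 2. With the array median subtracted it was -0.09, with 6.

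**Figure D2:**
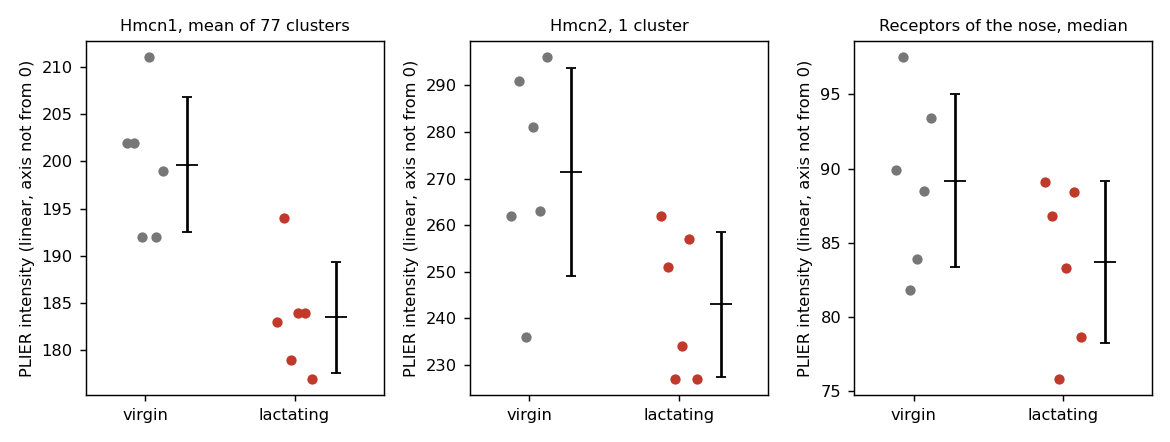
Intensity (linear, axes not from 0) of each mouse for the mean of the Hmcn1 clusters, the Hmcn2 cluster and the median of the receptor clusters; bars are the group mean and SD of 6 mice. The lactating mice lie lower on average in all 3 panels, and the receptor signal differs by 6.17%.

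The lower Hmcn1 values were spread over the lactating mice. Of the 77 Hmcn1 clusters, 67, 53, 65, 68, 65 and 73 were below the virgin mean in lactating mice 1 to 6. In virgin mice 1 to 6, 70, 60, 53, 74, 55 and 67 were above the lactating mean. The extremes were less even. Virgin mouse 4 was the highest of the 12 mice in 33 clusters and virgin mouse 2 in 16. Lactating mice 3, 1 and 6 were the lowest of the 12 in 18, 17 and 16 clusters. Without virgin mouse 4, 17 Hmcn1 clusters instead of 28 were past the unadjusted limma p and the median difference was -0.10. Over all clusters the share lower rose from 4.69% to 5.7% when that mouse was left out.

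**Figure D3:**
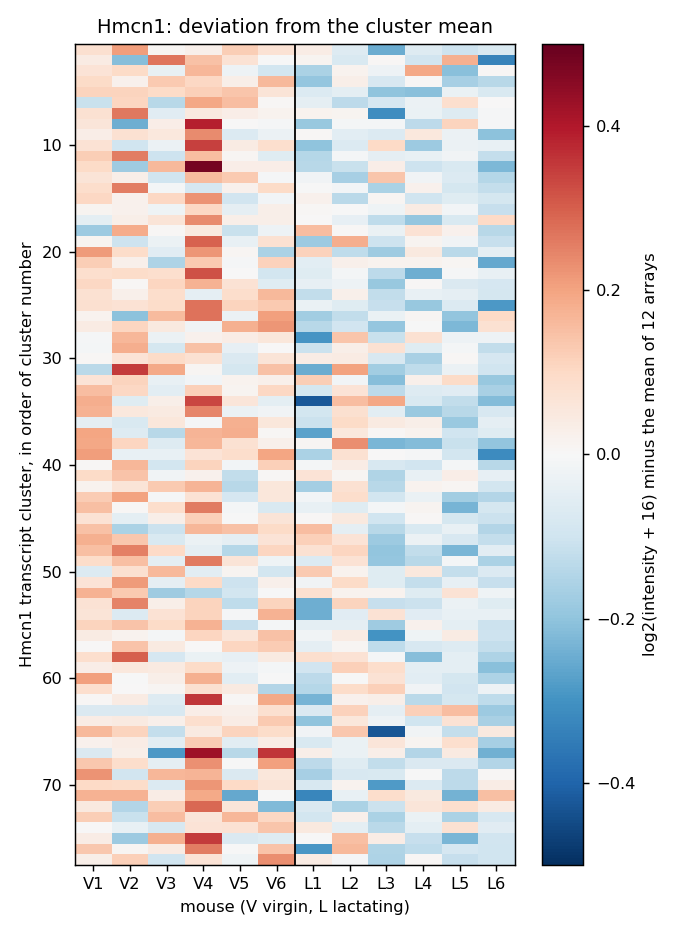
Deviation of each mouse from the mean of the 12 arrays (log2 of intensity + 16, red above and blue below) for the 77 Hmcn1 clusters in order of cluster number. Virgin mouse 4 is the highest mouse in 33 clusters, and low values are spread over lactating mice 1, 3 and 6.

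The receptor clusters were also lower in the lactating mice. Their median difference was -0.07, 82.3% of the 1212 were negative, and 10.7% were lower and 4 clusters higher at an unadjusted limma p under 0.05. The median receptor intensity per array was 89.2 ± 5.81 in virgin and 83.7 ± 5.48 in lactating mice (SD, n = 6 each), a difference of -0.08 on the log2 scale. Of the Hmcn1 differences, 61 of 77 were more negative than the receptor median, which is a description only because Hmcn1 was chosen on this contrast. The Hmcn1 mean minus the receptor median of the same array was 0.89 ± 0.0961 in virgin and 0.85 ± 0.0696 in lactating mice on the log2 scale, a difference of -0.03 that was within the spread of either group. When the receptor median was subtracted from each array before the fit, the median Hmcn1 difference was -0.04. In that fit 59 Hmcn1 clusters were negative and 18 positive, and 2 instead of 28 were lower at an unadjusted limma p under 0.05. Over all clusters the share lower by that rule fell as well, from 4.69% to 0.492%. The receptor signal thus moved with the group in the same direction as Hmcn1, and its part in the Hmcn1 difference was not tested.

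Dim clusters in general were slightly lower in lactating mice. When all clusters were split into 10 equal bins by mean intensity, with bin 1 the dimmest, 7 bins held Hmcn1 clusters, and the median Hmcn1 difference was below that of all clusters in each of the 7. Hmcn1 was chosen on these differences, so its place below the other clusters is a description only. In bins 3 and 4, which held 22 and 21 Hmcn1 clusters, the Hmcn1 medians were -0.13 and -0.11 against -0.0549 and -0.0511 for all clusters. In bin 6, with 5 Hmcn1 clusters, the medians were -0.12 and -0.00823. In bin 7, with 2, they were -0.10 and 0.0171.

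**Figure D4:**
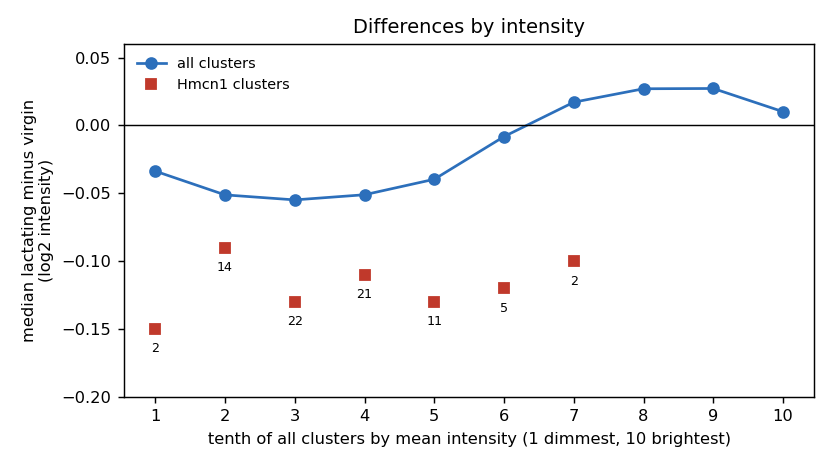
Median difference between lactating and virgin mice (log2 of intensity + 16) in 10 equal bins of all clusters by mean intensity, for all clusters (line) and for the Hmcn1 clusters (squares, with their number). The Hmcn1 squares run from -0.15 to -0.09 and lie below the line in each of the 7 bins that hold any.

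With 6 mice per group, no relation between Hmcn1 and the receptor signal passed an exact test from mouse to mouse, and its sign and size varied with the normalization. Within the virgin group, the Hmcn1 level and the receptor median had Pearson's r = -0.06 (exact permutation p = 0.893, n = 6) and Spearman's rho = 0.14 (exact permutation p = 0.803). Within the lactating group, r was 0.50 (exact permutation p = 0.329, n = 6) and rho 0.43 (exact permutation p = 0.419). Without the 2 mice farthest from the median of the receptor signal, r was -0.63 and -0.22, so the lactating value rested on those mice. After quantile normalization, r was -0.80 in virgin mice (exact permutation p = 0.0583, rho = -0.83 with exact permutation p = 0.0583) and -0.55 in lactating mice (exact permutation p = 0.285). For Hmcn2, a relation added after the data were seen, r was 0.73 in virgin mice (exact permutation p = 0.106, rho = 0.71 with exact permutation p = 0.136) and 0.94 in lactating mice (exact permutation p = 0.00833, rho = 0.94 with exact permutation p = 0.0167). Without the 2 farthest mice, which left 4 in each group, the Hmcn2 values were 0.27 in virgin and 1.0 in lactating mice. The Hmcn2 relation is not given for another normalization. Adjusted over these 4 relations by Benjamini-Hochberg, the exact permutation p for Hmcn2 in lactating mice was 0.0333, for Hmcn2 in virgin mice 0.212, and for Hmcn1 0.893 in virgin and 0.439 in lactating mice.

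Within groups, the Hmcn1 clusters varied together in part. After the group means were removed, 71 of 77 clusters correlated positively with the mean of the other 76 over the 12 arrays. The median r was 0.41, with a range from -0.38 to 0.84, and 28 clusters exceeded 0.5. Between single clusters the median r over 2926 pairs was 0.18, with 67.6% positive, whereas between pairs of receptor clusters it was 0.30. All of these share arrays and array-wide shifts, so they are descriptions. The genes whose values followed the Hmcn1 mean most closely over the 12 arrays, again with group means removed, were Gm9776 (r = 0.89), Rdh9 (0.86), Cenph (0.86), Btf3l4 (0.85) and Gm5136 (0.85) at any intensity. Above the median intensity they were Gm9776, Btf3l4, Gm5136, Ralgapa2 (0.84) and Slc6a15 (0.83). These were the highest of 21712 clusters searched. Hmcn2 stood at r = 0.45, above 90.0% of them.

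Hmcn2 was lower in lactating mice by a similar amount. Its cluster, 10471139, had intensities of 262, 291, 236, 281, 263 and 296 in virgin mice 1 to 6. In lactating mice 1 to 6 it had 262, 251, 227, 234, 257 and 227. Lactating mice 3, 4 and 6 were below every virgin mouse and virgin mice 2, 4, 5 and 6 above every lactating mouse, with virgin mouse 3 inside the lactating range. The means were 272 ± 22.1 and 243 ± 15.8 (SD, n = 6 each), 10.5% lower, and the log2 difference was -0.15 ± 0.0579 (SE). The exact two-sided permutation p over 924 assignments was 0.0281, where the smallest possible is 0.00216, and the limma p was 0.0229. Adjusted over all 35556 clusters the limma p was 0.619, so the difference did not pass correction. With the receptor median subtracted, the Hmcn2 difference was -0.07 with a limma p of 0.142.

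Genes other than Hmcn1 with 10 or more clusters serve as a description of how clusters of 1 gene moved. There were 23 of them with 406 clusters, and by the same unadjusted limma p 25 of these were lower (6.16%) and 16 higher, where the shares over all clusters were 4.69% and 3.26%. Dnah3, an axonemal dynein heavy chain with 33 clusters, had a median difference of -0.08 with 30 negative and 5 lower. Chd7, a chromatin remodeller with 30 clusters, had -0.01 with 0 lower, and Ccdc180 with 27 clusters had -0.06 with 2 lower. The gene medians ran from -0.21 for Adamts3, a protease that processes procollagen, to 0.13 for Cdc5l, a splicing factor. Adamts3 and Cdc5l were picked after their values were seen. All 16 clusters of Adamts3 were negative, with 6 lower, and all 11 of Cdc5l were higher.

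Few of the genes that share modules or places with the hemicentins passed the test. In 6 lists of matrix genes, 116 of 120 genes were measured, each by its brightest cluster. At an unadjusted limma p under 0.05, 8 were lower (6.90%, against 4.69% of all clusters), 1 was higher (0.862%, against 3.26%) and 107 did not pass. The smallest adjusted limma p was 0.619. Of the 8 lower genes, Matn1 (mean intensity 103), Mmp3 (145), Frem1 (175), Itga2 (176) and Itga7 (242) lay under the receptor 95th percentile of 246. Col18a1 (327), Frem2 (329.5) and Col15a1 (430) lay above it. The p-values given for single genes are two-sided exact permutation p-values over the mice unless limma is named. With the receptor median subtracted, 1 was lower (Matn1) and 8 were higher, Fbln5 among them. That subtraction moved all clusters of an array by the same amount, upwards in lactating relative to virgin mice. Over all clusters 0.492% were lower in that fit, and the share higher is not given here. Fbln5, Matn1 and Col18a1 passed the unadjusted limma p whichever mouse was left out, and each of the other 6 missed it without at least 1 mouse (Itga2 only without lactating mouse 3).

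Among the fibulins, which share the tail module of the hemicentins, 1 of 5 was higher and 0 lower. Fbln5, which organises elastic fibres, had intensities from 277 to 333 with a median of 298 in virgin mice, and from 328 to 462 with a median of 380.2 in lactating mice. In 5 of 6 lactating mice it exceeded every virgin mouse, with means of 302 ± 22.3 and 389 ± 54.0 (SD, n = 6 each). The difference was 0.34 ± 0.082 (SE) with an exact permutation p of 0.00433 and a limma p of 0.00116, opposite in sign to Hmcn1. Fbln1 (0.02), Efemp1 (0.03) and Fbln7 (-0.01) did not pass. Fbln7 had a positive sign when the array or the receptor median was subtracted. Of 11 fibroblast markers, 9 were positive, with a list median of 0.14. By the unadjusted limma p 1 was higher, Ogn, and 0 were lower, where the shares over all clusters were 3.26% and 4.69%. Ogn went from 85.0 ± 12.4 to 141 ± 72.0 (0.55, exact permutation p = 0.00433). It was uneven among the lactating mice, from 95.8 to 284 with a median of 110.1. The summed fibroblast signal ran from 4433 to 5667 in virgin and from 4469 to 7869 in lactating mice, and its part in the Fbln5 and Hmcn1 differences was not tested.

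**Figure D5:**
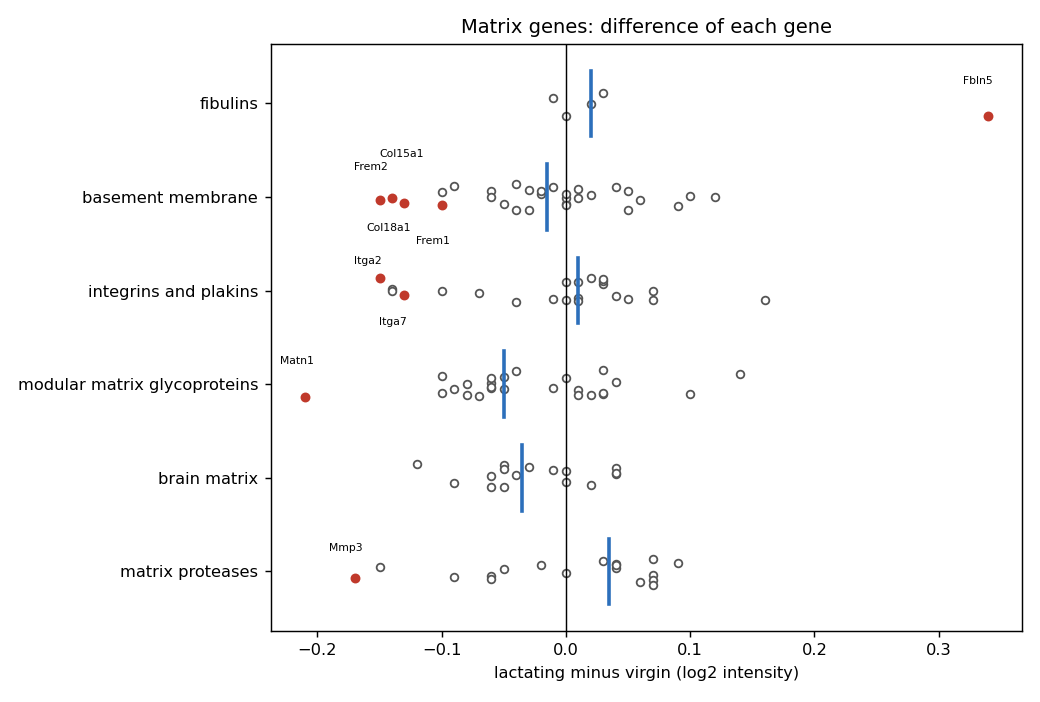
Difference between lactating and virgin mice (log2 of intensity + 16) for each measured gene of the 6 matrix lists; filled red points passed an unadjusted limma p under 0.05 and blue bars are list medians. List medians lie between -0.05 and 0.03, and Fbln5 stands apart at 0.34.

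Of the basement membrane genes, 4 of 30 were lower and 0 higher, with a list median of -0.01. Col18a1, a collagen that yields endostatin, went from 343 ± 17.0 to 311 ± 20.7 (-0.14, exact permutation p = 0.0173). Col15a1, its close relative, went from 450.1 ± 33.0 to 409.8 ± 19.6 (-0.13, exact permutation p = 0.0325). Frem2 and Frem1, large proteins that hold epithelia to the matrix beneath, differed by -0.15 (exact permutation p = 0.0346) and -0.10 (exact permutation p = 0.0303). None of these 4 passed once the receptor median was subtracted, and Col18a1 alone of them passed with the array median subtracted. Frem1 also missed the unadjusted limma p after quantile normalization, after cyclic loess, with trend and robust estimation, with array weights and with the replicate block. The brightest members, Sparc, a collagen-binding protein (0.05), and Agrn, a heparan sulphate proteoglycan (-0.04), did not pass, and the sign of Agrn turned with the receptor median subtracted.

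Of the integrins and plakins, the cell surface receptors of the matrix and their cytoskeletal partners, 2 of 22 were lower and 0 higher. Itga2, a collagen receptor, went from 186 ± 16.9 to 166 ± 9.52 (-0.15, exact permutation p = 0.0216), and Itga7, a laminin receptor, from 254 ± 21.5 to 230 ± 14.2 (-0.13, exact permutation p = 0.0498), and neither passed with the receptor median subtracted. Itga7 also missed it after quantile normalization, after cyclic loess, with the array median subtracted, with array weights and with the replicate block. Itgb3 (-0.14, exact permutation p = 0.0693), Itgb4 (-0.10), Dst (0.04) and Macf1 (-0.01) did not pass, although Itgb3 and Itgb4 were lower at an unadjusted limma p under 0.05 with the replicate block. The sign of Macf1 turned with the array or receptor median subtracted.

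Of the other modular glycoproteins, many of which share the von Willebrand, EGF or thrombospondin modules of hemicentin, 1 of 25 was lower and 0 higher. Matn1, a matrilin built of von Willebrand A domains, ranged from 100.4 to 126 in virgin mice with a median of 112 and from 81.2 to 109 in lactating mice with a median of 94.9. In 5 of 6 lactating mice it was below every virgin mouse, and the difference was -0.21 ± 0.0641 (SE, exact permutation p = 0.0108). Adamtsl4 (-0.10), Ltbp2 (-0.10), Adamtsl2 (-0.09), Matn2 (0.14) and Spon1 (0.03) did not pass, with Spon1 at -0.00 after quantile normalization.

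The matrix of brain tissue itself, made of hyaluronan, lecticans and tenascins, gave 0 lower and 0 higher of 16 at an unadjusted limma p under 0.05. Has3, a hyaluronan synthase, was closest (-0.12, exact permutation p = 0.0606), and it was past the unadjusted limma p with the replicate block. Tnc, a tenascin, was at -0.09, and the bright proteoglycans were at -0.06 (Cspg5), -0.05 (Ncan) and -0.01 (Bcan), with all 3 turning positive when the receptor median was subtracted and Bcan also with the array median subtracted. Of the matrix proteases and their inhibitors, 1 of 18 was lower and 0 higher. Mmp3, stromelysin 1, went from 155 ± 17.8 to 135 ± 11.8 (-0.17, exact permutation p = 0.0476) and did not pass on linear intensities, after quantile normalization or cyclic loess, or with the array or receptor median subtracted. Timp1 (-0.15), Adamts9 (-0.09), Mmp24 (0.07), Timp3 (0.09) and Timp2 (0.00, and -0.01 under cyclic loess) did not pass.

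Few markers of other cells that the dissection could hold passed the unadjusted limma p, by which 4.69% of all clusters were lower and 3.26% higher. Of 6 endothelial and 7 mural cell markers 0 passed the unadjusted limma p in either direction. Of 7 ependymal markers 1 was lower (Ccdc153, -0.13, exact permutation p = 0.0476), with summed signals of 2436 to 3094 in virgin and 2386 to 2850 in lactating mice. Of 7 choroid plexus markers 1 was higher (Clic6, 0.16, limma p = 0.0465), although its exact permutation p was 0.0671. Of 7 microglial markers 2 were lower, Cx3cr1 (-0.11, limma p = 0.0482, exact permutation p = 0.00216, the smallest possible) and P2ry12 (-0.12, exact permutation p = 0.00866). For Cx3cr1 the groups were barely apart, with a lactating maximum of 814 and a virgin minimum of 819. The adjusted limma p was 0.623 for Cx3cr1 and 0.619 for P2ry12. Of the 7 astrocyte, 6 oligodendrocyte, 7 neuron, 5 striatal and 6 cortical and hippocampal markers 0 passed. All 5 striatal markers were nevertheless negative, with a list median of -0.14. Their summed signals ran from 21039 to 25273 in virgin and from 15938 to 24715 in lactating mice. The cortical and hippocampal markers were positive in 5 of 6, with a list median of 0.27. Their summed signals ran from 2475 to 4050 in virgin and from 2319 to 7818 in lactating mice. What part any of these marker lists had in the Hmcn1 difference was not tested.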

How the data were processed

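Per the methods, extractions were run pairwise, 1 mouse from each group, and the labels do not give the pairs. Total RNA (200 ng per mouse) was labelled with the Ambion WT kit. The authors summarised the probes per transcript cluster with PLIER and a GC-bin background correction in Affymetrix Power Tools 1.12.0, and they deposited the resulting intensity of each cluster, not log-transformed, between 3e-05 and 26317. The build of the array annotation is not given in the sources used here. Array medians lay between 319.6 and 339. PLIER intensities of dim clusters hold unspecific signal. The 16 added compresses the differences of dim clusters, most of all in the 496 clusters with a mean below 16. The dimmest Hmcn1 clusters are affected as well. Cluster 10358597, with a mean of 39.6, was 12.8% lower on the linear scale and -0.14 on the scale used.

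Here 16 was added, log2 was taken, and limma 3.58.1 in R 4.3.3 (lmFit, eBayes, two-sided) was fitted over all 35556 clusters, with Benjamini-Hochberg adjusted p-values and no covariate. The study's methods name limma without the scale. Exact permutation tests of group differences went through all assignments in Python 3.11.15 with numpy 2.4.6. Spearman's rho across clusters came from scipy 1.17.1. Symbols came from GEO's platform annotation, and 99.6% of clusters with 1 symbol matched a RefSeq gene. Fits were tested on simulated data.

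The members and lists were chosen with earlier results of these data known. Named were the 4 brightest Hmcn1 clusters, the 6 most negative, the first and the last, Hmcn2, the 4 smallest p and 2 brightest of each matrix list, the 5 genes most correlated with Hmcn1 and the 3 other genes with most clusters. The Hmcn1 clusters above 0, the non-overlapping ones, the neighbours in number and the markers that passed were named besides. Alternatives were other scales, normalizations, variance models, a replicate block and each array left out.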

Additional observations from a re-analysis of the deposited data

Results flagged for a closer look

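In 10 of 226 groups of 6 mice, over the Hmcn1 and Hmcn2 clusters and the named matrix genes, 1 mouse lay far from the other 5 by Dixon's criterion for the gap to the nearest mouse over the whole range. Chance alone gives about 1 in 20 such groups. Virgin mouse 4 was the high value in 3 Hmcn1 clusters, with 223 in cluster 10358529 (next 184), 120.4 in 10358543 (next 105) and 300.3 in 10358559 (next 271). Virgin mouse 6 was low in cluster 10358631 with 245 (next 274). Lactating mouse 3 was low in 10358523 with 242 (next 289.6), lactating mouse 6 was low in 10358551 with 124 (next 145), and lactating mouse 1 was high in 10358601 with 152 (next 131). Among the matrix genes, Fbln1 was high in virgin mouse 6 with 530.5 (next 438), Frem2 was low in virgin mouse 4 with 294 (next 345), and Ncan was high in virgin mouse 1 with 2505 (next 2386).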

How the results depend on the processing

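The Hmcn1 count of 28 lower clusters was 11 after quantile normalization, 8 after cyclic loess and 18 with the array median subtracted. It was 2 with the receptor median subtracted and 4 of 7 among clusters above the median intensity. The share lower over all clusters was 4.69% in the main fit. In the same order of settings it was 3.35%, 3.18%, 2.79%, 0.492% and 2.82% of the clusters fitted. With 1 mouse left out the Hmcn1 count ran from 17 (without virgin mouse 4) to 31, and the share over all clusters ran from 2.96% to 7.31%. The median Hmcn1 difference of -0.12 was -0.07 after cyclic loess and -0.04 with the receptor median subtracted, and it ran from -0.13 to -0.10 with 1 mouse left out. The Hmcn1 level difference of -0.11 was -0.07 after quantile normalization and after cyclic loess and -0.03 with the receptor median subtracted, and the 5 lactating mice below every virgin mouse became 4, 2 and 1. The Hmcn2 difference of -0.15 was -0.07 with the receptor median subtracted. With 1 mouse left out it ran from -0.19 to -0.13, and it missed an unadjusted limma p under 0.05 without lactating mouse 3, lactating mouse 6, virgin mouse 2 or virgin mouse 6 (p from 0.0509 to 0.0546). Hmcn2 was below the median intensity and has no value in that setting. The 1 higher matrix gene became 3 on linear intensities, 2 above the median intensity, 2 after quantile normalization, 2 after cyclic loess, 4 with the array median subtracted, 8 with the receptor median subtracted and 3 with array weights. Over all clusters 3.26% were higher in the main fit. The share higher is not given here for any other setting, so nothing is read from these higher counts. The 8 lower became 1 above the median intensity, 5 after quantile normalization, 5 after cyclic loess, 3 with the array median subtracted and 1 with the receptor median subtracted. With 1 mouse left out the higher ran from 1 to 3 (3 without virgin mouse 6) and the lower from 3 (without virgin mouse 1) to 11, and Fbln5 was among the higher in each. The cause of these changes was not tested. Within groups, r of Hmcn1 with the background signal was 0.24 in virgin mice when the dimmest 3 of 10 equal bins of clusters stood for the background. After quantile normalization it was -0.80 in virgin mice, against -0.06, and -0.55 in lactating mice, against 0.50.

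Same-numbered mice had residual correlations above 0.1 in 2 of 6 pairs. Mice with different numbers were not compared, so these values cannot tell whether the numbers mark the extraction pairs. The main fit did not take the numbers as pairs, although the methods state that extractions were run pairwise, 1 mouse from each group. With the replicate block, 28 Hmcn1 clusters were lower (5.72% of all clusters were), Hmcn2 was at -0.15 and still past the unadjusted limma p, and 9 matrix genes were lower and 1 higher. Of the 9, 6 were among the 8 lower without the block, with Frem1 and Itga7 lost and Itgb3, Itgb4 and Has3 gained.

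Over 45 named clusters and genes, 851 of 958 comparisons with an alternative kept direction and side of the threshold, 50 lost and 22 gained the threshold, 2 moved by more than the spread and 33 turned sign. Those that turned sign in a fit with all mice were Agrn (0.04), Bcan (0.07), Cspg5 (0.02), Fbln7 (0.07), Macf1 (0.07) and Ncan (0.03) with the receptor median subtracted, Bcan (0.02), Fbln7 (0.01) and Macf1 (0.02) with the array median subtracted, Bcan (0.01) with array weights, Spon1 (-0.00) after quantile normalization and Timp2 (-0.01) after cyclic loess. With 1 mouse left out, the ranges were -0.04 to 0.04 for Bcan, -0.07 to 0.09 for Efemp1, -0.02 to 0.07 for Fbln1, -0.05 to 0.03 for Fbln7, -0.01 to -0.00 for Macf1, -0.01 to 0.05 for Spon1 and -0.01 to 0.02 for Timp2. Macf1 turned sign in 2 of these fits, at values too small to show at this rounding.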
